A study of Saccharomyces cerevisiae with 2 samples.

Results

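The protein O-mannosyltransferase family of budding yeast was followed through a cell wall stress. Its 6 genes, PMT1 (YDL095W), PMT2 (YAL023C), PMT3 (YOR321W), PMT4 (YJR143C), PMT5 (YDL093W) and PMT6 (YGR199W), were taken by their systematic names from 6207 gene features. The rule for choosing them uses names and no ratio, but the family was picked with earlier results of these data known. PMT1, PMT2, PMT3 and PMT6 had a value on both arrays, while PMT4 and PMT5 had none on either, so 4 of 6 genes could be described. The RNA came from a mid2 mutant in the BY4741 background, a haploid laboratory strain of Saccharomyces cerevisiae, grown in rich YEPD medium at 24 °C. Mid2 is a sensor in the plasma membrane that starts the cell wall integrity pathway. A culture was split, and 1 part received Congo Red, a dye that binds chitin and disturbs wall assembly, at 30 µg/ml for 4 h, while the other grew on without it. All RNAs lack an intact MID2, and no array of wild-type cells was analysed here, so nothing below can be set against cells with the sensor.

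The Pmt enzymes sit in the membrane of the endoplasmic reticulum and move a mannose from dolichol phosphate mannose to serines and threonines of proteins on their way to the cell surface. They fall into the PMT1 subfamily (Pmt1 and Pmt5), the PMT2 subfamily (Pmt2, Pmt3 and Pmt6) and Pmt4 alone. Pmt1 pairs mainly with Pmt2 and Pmt5 mainly with Pmt3, whereas Pmt4 acts as a homomer on proteins bound to the membrane. Their substrates include wall proteins and the wall sensors, Mid2 among them, and the enzymes also mark proteins that fail to fold.

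Each of 2 two-channel arrays compared treated with untreated RNA, and each feature carried a single log2 ratio per array. Treated RNA was labelled with Cy3 on array 1 and with Cy5 on array 2. There were 2832 features with a value on array 1, 3440 on array 2 and 2738 on both, and precision is limited throughout by there being no more than 2 arrays. The labels describe RNA of 2 cultures, each hybridised with swapped dyes on a pair of arrays, and do not say which culture the arrays analysed here hold. They may thus be a dye swap of a single culture, in which case n = 2 counts hybridisations and the SDs and p-values measure technical spread only. The cells for MID2 were empty on both arrays, which leaves the mutation unchecked, and since both channels hold mutant RNA a ratio could not have checked it. The median of all features lay at −0.24 on the log2 scale rather than at 0. Which channel is the numerator is not stated. The columns correlated positively across features in spite of the swapped dyes (Pearson r = 0.48, Spearman rho = 0.34, over features, which are not independent replicates). This does not settle whether array 1 or array 2 was turned so that the columns point the same way, because a dye bias of each feature in columns of fixed channel order would give a positive correlation as well. The columns are read here as turned to treated over untreated, the usual order, under which a positive value means more RNA with Congo Red. As this reading is an assumption, values are called positive and negative, and every mean and rank below holds under it unless said otherwise.

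All 3 genes of the PMT2 subfamily had positive means, as had PMT1 outside it. PMT6, a less studied family member, had the highest ratios of the family. Its log2 ratio was 1.05 on array 1 and 1.62 on array 2, which correspond to 2.08-fold and 3.07-fold. Both values lay far to the positive side, and 94 of the 2738 features had a higher mean. The mean of PMT6 was 1.34 ± 0.40 (SD, n = 2), with a 95% interval of 0.58 to 2.09 in limma, a linear model that borrows the spread of all features. PMT6 did not pass limma over all features (Benjamini-Hochberg adjusted p = 0.244, unadjusted p = 0.00695).

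PMT2, which encodes the partner of Pmt1 in the main complex, stood at 0.71 on array 1 and 1.01 on array 2, or 1.64-fold and 2.02-fold. The 2 arrays differed by 0.30, and 37.6% of all features had a smaller difference. Both values were positive, above 89.4% of features on array 1 and 96.1% on array 2. Its mean of 0.86 ± 0.21 (SD, n = 2) had a 95% interval of 0.17 to 1.55 and was exceeded by 174 features. PMT2 did not pass limma over all features either (adjusted p = 0.346, unadjusted p = 0.0250).

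PMT3, whose product resembles Pmt2 and pairs with Pmt5, gave −0.09 on array 1 and 1.27 on array 2. Its positive mean rested on array 2 alone, since array 1 without array 2 has the opposite sign. The arrays differed by 1.36 for PMT3, and 91.1% of all features had a smaller difference. The mean was 0.59 ± 0.96 (SD, n = 2), the 95% interval ran from −0.49 to 1.68, and limma gave an adjusted p of 0.511.

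The PMT1 subfamily was represented by PMT1, whose product is the partner of Pmt2, with −0.018 on array 1 and 0.14 on array 2. These are ratios close to 1, of 0.988-fold and 1.10-fold, with opposite signs. The mean was 0.06 ± 0.11 (SD, n = 2) with a 95% interval of −0.61 to 0.74 and an adjusted p of 0.894 in limma. Against the median of all features PMT1 lay slightly above on both arrays, by 0.25 on array 1 and 0.33 on array 2. PMT5, the other gene of this subfamily, and PMT4 had empty cells on both arrays, as had 43.1% of all features, and the reason is not given in the sources used here.

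**Figure D1:**
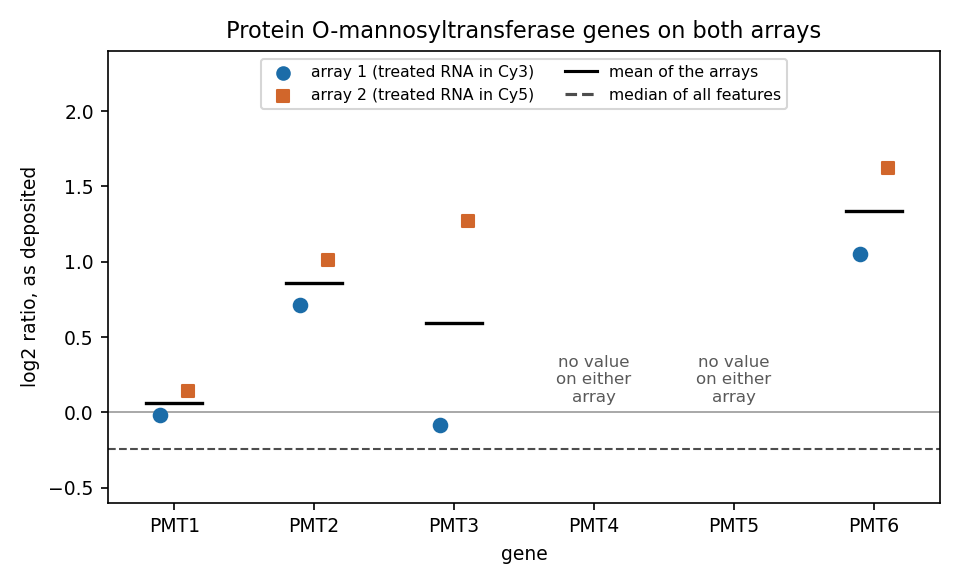
Log2 ratio as deposited (vertical axis) of each PMT gene (horizontal axis) on array 1 (circles) and array 2 (squares), with the mean of the 2 arrays (bar) and the median of all features (dashed, −0.24). PMT6 and PMT2 are positive on both arrays, PMT3 is apart from 0 on array 2 only, PMT1 is near 0, and PMT4 and PMT5 have no value.

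Over the whole comparison limma called 0 of 2738 features at an adjusted p under 0.05, or 0%, and the smallest adjusted p of any feature was 0.123. Moderation that is robust to outlying spreads also gave 0. At an unadjusted p under 0.05 there were 371 features (13.6%), of which 172 were positive (6.28%) and 199 negative (7.27%). PMT2 and PMT6 were among these, 2 of 4 measured members, both on the positive side, and they were the same 2 after each array was centred on its median, when 8.18% of features were positive at that p. A rule of size asked for a 2-fold mean and for 1.5-fold or more on array 1 and on array 2 with equal signs, and 113 positive (4.13%) and 77 negative features (2.81%) met it. PMT6 was the single member past that rule. With centring, which moves the median of all features by 0.22, the rule took 162 positive and 35 negative features and PMT2 came in beside PMT6.

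**Figure D2:**
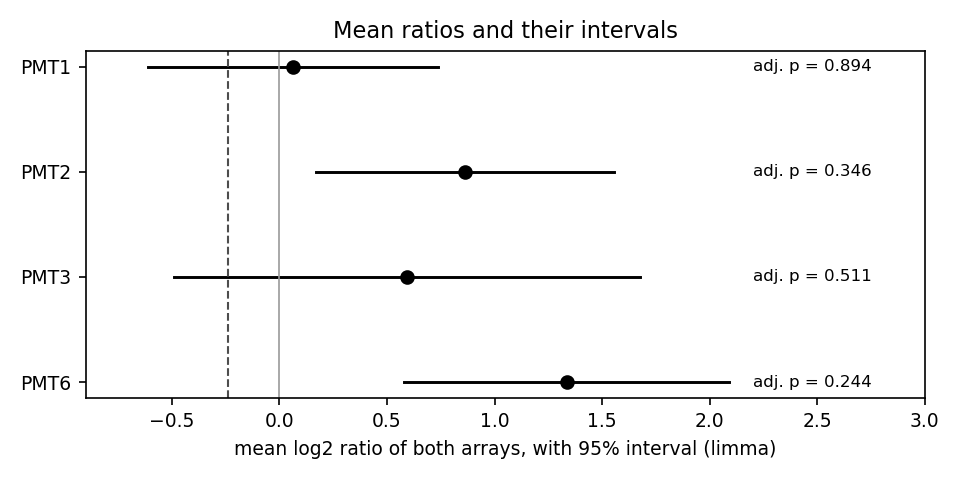
Mean log2 ratio of both arrays (horizontal axis, points) with its 95% interval from limma (lines) for the 4 measured PMT genes, beside the adjusted p. The solid line marks 0 and the dashed line the median of all features at −0.24. The intervals of PMT6 and PMT2 lie above 0, those of PMT3 and PMT1 include it, and no adjusted p is under 0.05.

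On array 1 and on array 2 alike all 4 measured members exceeded the median of all features, which 29.3% of all features did. The median member was 0.97 above that of all features in the mean of the arrays, 0.61 above it on array 1 and 1.33 on array 2. In absolute sign, 2 of the 4 were positive on both arrays, against 15.9% of all features, and the other 2 had opposite signs, against 29.6%. None was negative on both, where 54.5% of all features were. On array 1 the share of features below a member ran from 64.0% for PMT3 to 92.3% for PMT6. On array 2 it ran from 78.0% for PMT1 to 98.1% for PMT6.

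By mean ratio the order was PMT6, PMT2, PMT3 and PMT1. PMT6 exceeded PMT2 by 0.48 ± 0.19 (SD, n = 2), in the same order on both arrays. PMT2 exceeded PMT3 by 0.27 ± 0.75 (SD, n = 2), less than the spread, with the order reversed between the arrays. PMT3 exceeded PMT1 by 0.53 ± 0.85 (SD, n = 2), again within the spread and in reversed order. The genes of the main heterodimer were apart: PMT2 exceeded PMT1 by 0.73 on array 1 and by 0.87 on array 2. Of the 6 possible gene pairs, 4 kept their order on both arrays and 4 had a mean difference above its SD. These differences were not tested. A permutation of 2 arrays cannot give a two-sided p below 0.5, and no moderated test of the pairs was run.

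All 4 members were higher on array 2 than on array 1, as were 58.4% of all features. The difference was 0.16 for PMT1, 0.30 for PMT2, 0.57 for PMT6 and 1.36 for PMT3, beside a median of 0.12 over all features. This difference matters for the direction of the ratios. If both columns held Cy5 over Cy3 and had never been turned, the treatment would be measured by array 2 minus array 1, divided by the number of arrays. Under that reading PMT3 would be at 0.68, PMT6 at 0.28, PMT2 at 0.15 and PMT1 at 0.08. Each value keeps its positive sign, PMT3 instead of PMT6 becomes the highest, and limma gives an adjusted p of 1 for each of the 4. With the opposite channel order, in either reading, each sign would be the opposite.

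**Figure D3:**
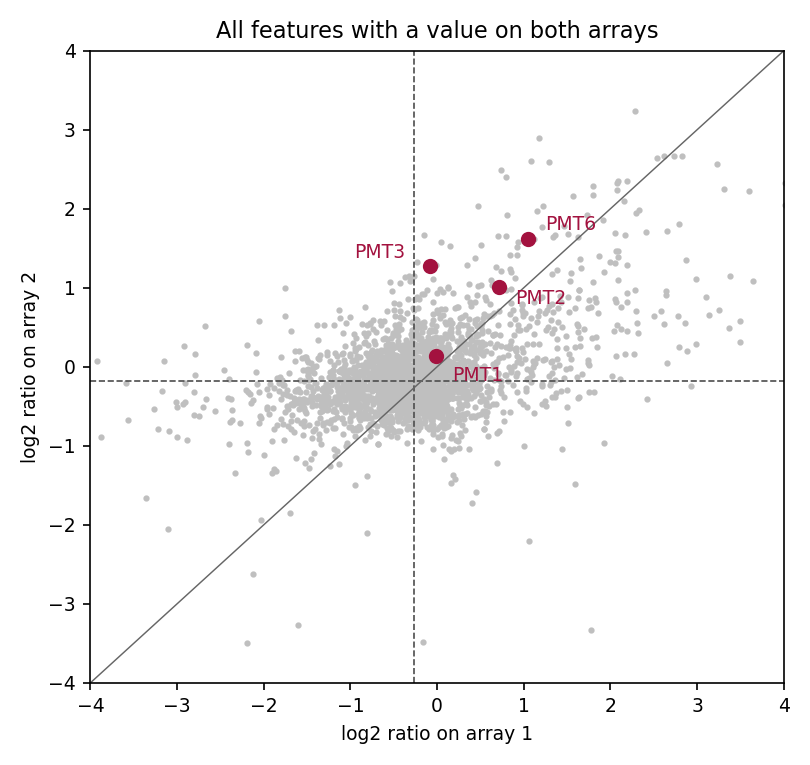
Log2 ratio on array 1 (horizontal axis) against array 2 (vertical axis) for each feature measured on both (grey), with the 4 measured PMT genes in red, and 21 features beyond the axes left out. Dashed lines mark the median of all features on each array and the diagonal marks equal values. All 4 PMT genes are above the diagonal and in the upper right quadrant of the dashed lines.

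The genes around the family in the same pathway were read next, beginning with the supply of the mannosyl donor. This list runs from the making of GDP-mannose and dolichol to dolichol phosphate mannose, with the entry of GDP-mannose into the Golgi. Of 12 genes listed 8 had values on both arrays, and limma called 0 of them over all features. At an unadjusted p under 0.05 in limma 1 was positive (GDA1), against 6.28% of all features, and 0 were past the rule of size. The median of the 8 lay 0.56 above that of all features, at 0.31 on array 1 and 0.46 on array 2. On both arrays 4 lay above the median of all features and 2 below it, against 29.3% of all features each. DPM1, the synthase of the sugar donor that the Pmt enzymes use, gave −0.31 on array 1 and 1.09 on array 2. Its mean of 0.39 ± 0.99 (SD, n = 2) thus rested on array 2, as did that of PMT3. GDA1, a GDPase needed for GDP-mannose uptake into the Golgi, was highest with 1.28 and 0.51, a mean of 0.90 ± 0.55 (SD, n = 2, adjusted p = 0.363 in limma), but lowest at −0.39 if the ratios were never turned, a reading that puts DPM1 highest at 0.70. DFG10, a polyprenol reductase, and RER2, a cis-prenyltransferase of dolichol synthesis, were lowest at −0.38 ± 0.06 and −0.32 ± 0.07 (SD, n = 2), and at 0.039 and 0.049 if never turned.

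After the Pmt step the chains are lengthened in the Golgi by mannosyltransferases of the KRE2 and MNN1 families. Of 13 genes of these families, not all of which need act on O-linked chains, 8 had values on both arrays, with 0 called by limma over all features. At an unadjusted p under 0.05 in limma there were 0, against 13.6% of all features, and 0 were past the rule of size. On both arrays 2 genes lay above the median of all features and 2 below it, against 29.3% of all features each. The median of the 8 lay 0.22 above that of all features, at 0.44 on array 1 and −0.03 on array 2. KTR1 and KRE2, which extend O-linked chains with further mannoses, were highest at 0.34 ± 0.63 and 0.33 ± 0.17 (SD, n = 2). KTR5 and YUR1, relatives of KRE2, were lowest at −0.52 ± 0.14 and −0.48 ± 0.46 (SD, n = 2). This order turned over with ratios read as never turned, where KTR1 was lowest at −0.44, KRE2 stood at −0.12, and YUR1 and KTR5 were highest at 0.33 and 0.10.

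Among 21 genes of proteins that textbook accounts name as O-mannosylated, 10 had values on both arrays. The sensors are poorly covered: WSC1, listed as SLG1 in the gene table, had a value on array 2 alone, −0.08, and WSC2, WSC3, WSC4, MID2 and MTL1 had none. Limma called 0 of the 10 over all features. A positive mean with an unadjusted p under 0.05 in limma was found for 3, against 6.28% of all features. Past the rule of size were 2, both positive, against 4.13% of all features. The median lay 0.69 above that of all features, at 0.73 on array 1 and 0.54 on array 2. PIR3, a wall protein linked to glucan, gave 3.39 and 1.15 on the arrays. CTS1, the chitinase of cell separation, gave 1.51 and 0.88. MSB2, a mucin-like sensor of filamentous growth and osmotic stress, gave 0.47 and 2.04, so that, as for PMT3, array 2 was the higher. AGA2, a subunit of the agglutinin of a-cells, was lowest at −0.63 ± 0.06 (SD, n = 2). FUS1, a protein of mating cells, gave −0.21 ± 0.05 (SD, n = 2). Its mean was 0.012 after centring, −0.0052 after scaling and −0.23 after quantile normalization. Read as never turned, MSB2 was at 0.78 and stayed positive, whereas CTS1 was at −0.31, PIR3 lowest at −1.12, AGA2 at 0.042 and FUS1 at −0.037.

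For comparison with other glycosylation in the same compartment, the 9 subunits of oligosaccharyltransferase, which attaches N-linked sugars, were listed, and 7 had values on both arrays. Their median lay 0.64 above that of all features, at 0.69 on array 1 and 0.36 on array 2. There were 0 limma calls over all features. At an unadjusted p under 0.05 in limma 1 gene (OST1) was positive, against 6.28% of all features. It was also past the rule of size, against 4.13%. On both arrays 5 were positive and 2 negative, against 15.9% and 54.5% of all features. OST1, a subunit of the core complex, gave 2.51 and 0.65, and STT3, the catalytic subunit, 0.52 and 0.46. OST4 and OST2, small membrane subunits, were lowest at −0.48 ± 0.33 and −0.43 ± 0.13 (SD, n = 2). Read as never turned, OST1 was lowest at −0.93, with OST4 at −0.23, STT3 at −0.029 and OST2 at 0.094. The other mannosyltransferases of the endoplasmic reticulum, which build the N-glycan precursor and the GPI anchor, lay at the median of all features (−0.065 relative to it, 5 of 10 genes measured, −0.13 on array 1 and 0.10 on array 2). None of these 5 was past the rule of size, and limma called 0 of them over all features. At an unadjusted p under 0.05 in limma there were 0, against 13.6% of all features. ALG1, which adds the first mannose of the N-glycan precursor, was highest at 0.50 ± 0.37 (SD, n = 2). GPI10 followed at −0.26 ± 0.52 (SD, n = 2). Its mean was 0.038 after scaling the arrays, −0.033 after centring and −0.199 after quantile normalization. The lowest were ALG9 at −0.56 ± 0.67 and ALG2 at −0.36 ± 0.08 (SD, n = 2). Read as never turned, ALG9 was highest at 0.47, with GPI10 at 0.37, ALG1 at 0.26 and ALG2 at −0.058.

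**Figure D4:**
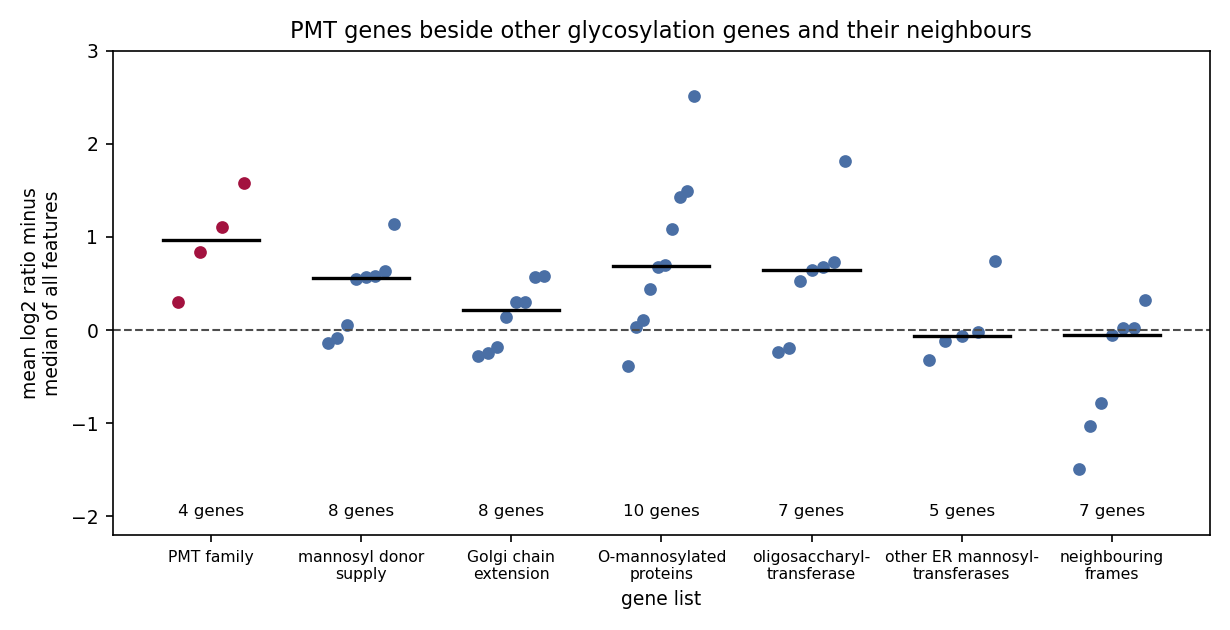
Mean log2 ratio of both arrays minus the median of all features (vertical axis) for each measured gene (points) of the PMT family and of 6 other lists (horizontal axis), with the median of each list (bar) and the median of all features (dashed). The PMT points run from 0.30 to 1.58, with a median of 0.97. The medians are 0.69 for the O-mannosylated proteins, 0.64 for oligosaccharyltransferase, 0.56 for the donor supply and 0.22 for the Golgi list. The other mannosyltransferases of the endoplasmic reticulum and the neighbouring or overlapping frames have medians of −0.065 and −0.056. PIR3 at 2.51 and OST1 at 1.82 lie above every PMT point.

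Read as never turned, the median of the PMT genes was 0.16 above that of all features. The donor supply was then at −0.05, the Golgi list at −0.17, the O-mannosylated proteins at −0.09, oligosaccharyltransferase at −0.20 and the other mannosyltransferases at 0.20. The frames neighbouring or overlapping the PMT genes were at 0.17, a little above the PMT family. Except for the PMT family, each of these list medians changed its side of the median of all features with this reading. The differences between lists were not tested.

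Frames next to the PMT genes or overlapping them were listed to see whether ratios were shared along the chromosome. The list does not mark which of the frames overlap a PMT gene. Of 11 such frames 7 had values on both arrays, with 0 positive on both and 5 negative, against 15.9% and 54.5% of all features. Limma called 0 over all features. At an unadjusted p under 0.05 in limma there were 2 (LTE1 and YDL096C), both negative, against 7.27% of all features. Beside PMT2, the nucleoside transporter gene FUN26 gave −0.15 and 0.31, and the mitotic exit gene LTE1 gave −1.94 and −0.60. LTE1 was the single neighbour past the rule of size, on the negative side, where 2.81% of all features were. Read as never turned, it was at 0.67 and so on the same side as PMT2 at 0.15, and LDB19, SRP14, ELP2, FUN26 and YDL096C were positive as well, from 0.18 to 1.28, with MGM101 at −0.016. Beside PMT3, the arrestin-related gene LDB19 gave −3.01 and −0.45, whereas GNT1, a glycosyltransferase gene, had a value on array 2 alone, −0.15. Beside PMT6, the Elongator gene ELP2 gave −0.46 and 0.011, with a mean of −0.22, and YPP1 had no value. The mean of ELP2 was 0.0012 after centring, 0.044 after scaling and −0.19 after quantile normalization. Around PMT1 and PMT5, YDL096C gave −1.58 and −0.47, and YDL094C had −0.47 on array 2 alone. SRP14, of the signal recognition particle, gave −0.40 and −0.04, with a mean of −0.22. The mean of SRP14 was 0.0061 after centring, 0.038 after scaling and −0.195 after quantile normalization. YDL096C and YDL094C have no entry in the gene table used. Beside PMT4, YJR142W had −0.56 on array 2 alone and the mitochondrial DNA maintenance gene MGM101 gave −0.28 and −0.31.

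Distance over the log2 ratios of the 2 arrays was taken to features matched to the gene table, and unmatched features were left out. The nearest to PMT6 were PFK2, of phosphofructokinase, at 0.0621, TFC1, of transcription factor TFIIIC, at 0.127, and YHR020W at 0.171. Nearest to PMT1 were RSP5, a ubiquitin ligase gene, at 0.0301, the sodium pump gene ENA1 at 0.0405 and TOS1, of a wall protein, at 0.0407. A likeness over 2 values describes position in these data only.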

How the data were processed

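Values were used as the authors deposited them, as log2 ratios of the channels of each array, in 1 table with 2 columns. The log2 scale was read from the values: read as powers of 2, all 2832 values of array 1 and all 3440 of array 2 give ratios of 4 decimals (relative tolerance 3e-09), and read as powers of 10 only 9 and 7 do. Per the labels' protocols, RNA was labelled by reverse transcription with Cy5 or Cy3 and the dyes were swapped between arrays. The labels speak of 2 cultures with a dye swap each, hence 4 arrays, while 2 arrays were analysed here, which may share a culture. The scanner, background correction, normalization, numerator and reason for empty cells were not stated. Signal over background is unknown, since no intensities were analysed here.

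Control features were left out. Names were matched to a gene table of assembly R64, with 5654 features matched and 553 not, and no coordinates are given because the array names no build. A two-sided moderated test of the mean of both arrays against 0 (limma 3.58.1, R 4.3.3) was fitted to the 2738 features with both values, and the script was tested on simulated data. Each of 20 simulations drew 2738 features from normal noise around 0, without a dye bias, and shifted 200 of them by 2-fold to 16-fold. The rates depend on this mix and need not hold for the measured ratios, whose median is not 0. In the simulations limma at an adjusted p under 0.05 recovered 7.4% of 2-fold and 75.9% of 4-fold changes. The rule of size recovered 45.9% and 96.8%. Of unchanged features limma took 10.2 and the rule of size 53 per simulation on average. A ratio near 2-fold that limma did not call is thus left undecided. Adjusted p-values are Benjamini-Hochberg values over all features. The PMT genes and the lists were chosen with earlier results of these data known. Genes named from a list are its 2 highest and 2 lowest means, members past limma or the rule of size, all neighbours and, chosen after their values were seen, the wall sensors. The 3 matched features nearest to the highest and lowest PMT gene were also named. A planned search of promoters was not run, as no sequence table was used here. Alternatives were centring, scaling, quantile normalization, ratios read as never turned, robust moderation, features with a value on either array, other thresholds and each array alone. Plots used Python 3.11.15 and matplotlib 3.10.9.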

Additional observations from a re-analysis of the deposited data

How the results depend on the processing

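With 2 arrays, each of the 4 measured PMT genes kept a positive mean in all 6 fits other than the one reported. None of the 4 was called by limma (adjusted p from 0.162 to 1 over 24 values). Not every fit could have turned a sign. Robust moderation and features with a value on either array leave the means as they were. Centring raises each mean by the same amount. Scaling starts from centred values, and these were positive for the 4 genes on array 1 and array 2. Only quantile normalization and ratios read as never turned could have given a negative mean. Each array alone, which leaves no spread for a test, gave −0.018 to 0.14 for PMT1, 0.71 to 1.01 for PMT2, −0.086 to 1.27 for PMT3 and 1.05 to 1.62 for PMT6, so that PMT1 and PMT3 turned negative on array 1. The median of the PMT genes relative to all features was 0.61 to 1.33 on single arrays, 1.10 after scaling, 1.13 after quantile normalization and 0.16 with ratios read as never turned. That reading gave 3 features called by limma in place of 0, none of them a PMT gene, and 11 past the rule of size in place of 190. An unadjusted p under 0.05 gave 371 features, a looser rule of size (a mean of 1.5-fold with the same sign) 664, and a 2-fold limit on single arrays 155 to 577. Scaling the arrays gave 169 positive and 42 negative features past the rule of size, against 113 and 77. No test with 1 array was run, as it has no residual degrees of freedom. Each ratio already pairs treated with untreated RNA on the same array, and a single group of arrays allowed no further pairing. Why values moved was not tested.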
